A study of Mus musculus with 6 samples.

Results

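The SR splicing factors and the heterogeneous nuclear ribonucleoproteins (hnRNPs) are the main families of RNA-binding proteins that act on pre-mRNA splicing, and their genes were taken here as every gene symbol that begins with Srsf and a digit or with Hnrnp. Of the 14788 symbols in the table, 29 met that rule, 11 of them SR genes and 18 hnRNP genes. The libraries came from type-2 conventional dendritic cells (cDC2s), the dendritic cells that present antigen mainly to CD4 T cells, taken from the spleens of C57BL/6 mice. RNA was sequenced from 3 Arhgef1-/- samples (the knockout) and 3 wild-type (WT) samples, and the values used are unnormalised counts of reads for each gene symbol. Arhgef1 is a guanine nucleotide exchange factor for the small GTPase RhoA. The labels name no other allele or agent and no age, do not say how the deletion was made or whether it was limited to a cell type, and do not tie the replicates to separate animals, so the tests weigh each change against a spread that may be technical.

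An SR protein pairs an RNA recognition motif with a tail rich in arginine and serine, binds exonic enhancers and helps to recruit the U1 and U2AF components to the splice sites. The hnRNPs coat nascent transcripts and often act against SR proteins, so that the balance between the families sets the use of many alternative exons. SR proteins are phosphorylated by the SRPK kinases in the cytoplasm and by the CLK kinases in the nucleus, and many genes of both families limit their own output through exons or introns that lead to nonsense-mediated decay. In leukocytes hnRNP L and its relatives are known for their part in the splicing of the Cd45 phosphatase.

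Total counts ran from 8408325 to 11714365 per knockout library and from 8546267 to 10702215 per WT library. The targeted gene, Arhgef1, stood at 129 ± 14.8 CPM (counts scaled to a common library size with TMM factors) in the knockout and 284 ± 35.6 CPM in WT (SD, n = 3 each). Its log2 fold change was -1.13 with an SE of 0.11 (edgeR adjusted p = 6.96e-06). Its reads were thus lower in each library labelled knockout but not absent, at 45.5% of the WT mean and 987 to 1694 reads a library, and counts over the whole gene do not show which part of it was lost. The names of the sequencing runs in the labels put the knockout libraries in one lane and the WT libraries in another, so lane and genotype cannot be told apart. Of the 12 tested markers of conventional dendritic cells and cDC2s 0 rose and 6 fell, and together they summed to 16062 to 17185 CPM in the knockout libraries and 18994 to 21154 CPM in the WT libraries. In the same libraries 26 of 27 markers of cycling cells rose, and that list summed to 4664 to 5396 CPM in the knockout libraries and 2259 to 2711 CPM in the WT libraries. Of 17 macrophage markers 14 fell, and that list summed to 298 to 467 CPM in the knockout libraries and 815 to 1268 CPM in the WT libraries, with 0 of its genes at 0 counts in every library. Their part in the results below was not tested, and in bulk RNA fewer cells of a type and less RNA per cell cannot be told apart. Of the tested markers of B cells, T cells, NK cells, neutrophils, platelets, plasmacytoid cells, cDC1s, erythroid cells, and stroma and endothelium, 0 passed the test. Few were tested: 1 each for NK cells, neutrophils and platelets, and 2 each for erythroid cells and for stroma and endothelium. T cells and plasmacytoid cells had 3 each, and B cells and cDC1s had 5 each. A shift in these cells could thus go unseen.

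Relative to all counts, several SR and hnRNP genes were higher in the knockout libraries and Srsf5 was lower. Among the 28 members that passed the filter on low counts, 5 rose (Hnrnpul1, Srsf2, Hnrnpab, Hnrnpd and Srsf7), 1 fell (Srsf5) and 22 did not pass (edgeR's quasi-likelihood test, Benjamini-Hochberg adjusted p under 0.05 over 11504 genes). The changes were between 1.22-fold and 1.54-fold for the genes that rose, and Srsf5 fell to 0.76 of its WT level. Over all tested genes the test called 9.67%, with 5.09% higher and 4.58% lower. These members are abundant, and abundant genes were called more often: of the 2213 tested genes with an average of at least 100 CPM 19.1% were called, and 6 of the 21 members at that level were. Of those 2213 genes 9.26% were higher in the knockout. The median log2 fold change was 0.01 over the 10 tested SR genes and 0.20 over the 18 hnRNP genes, against 0.00 over all tested genes. Srsf12, the 29th member, had 2, 2 and 3 reads in the knockout libraries, against 0, 8 and 1 in the WT libraries, and was not tested.

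SR genes held 0.308%, 0.313% and 0.291% of all counts in knockout libraries 1, 2 and 3, against 0.269%, 0.292% and 0.285% in WT libraries 1, 2 and 3. One WT library lay above the lowest knockout library, so the groups overlapped. hnRNP genes held 0.634%, 0.685% and 0.622% in the knockout libraries, against 0.558%, 0.572% and 0.584% in the WT libraries. Every knockout library lay above every WT library in this sum.

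Levels of different genes were compared per kilobase of coding transcript, using for each gene the middle length among its GENCODE coding transcripts. Hnrnpa2b1, whose protein packages nascent transcripts and takes part in RNA transport, was by far the most abundant, at 1067 ± 76.8 CPM per kilobase in the knockout and 1035 ± 40.7 CPM per kilobase in WT (SD, n = 3 each). By library it had 1697, 1904 and 1674 CPM in the knockout libraries, against 1692, 1645 and 1778 CPM in the WT libraries. The groups overlapped, and the log2 fold change of 0.04 ± 0.07 (± SE, as in all that follow) did not pass the test (edgeR adjusted p = 0.774), with a 95% interval of -0.10 to 0.19. Srsf2, Hnrnph1 and Srsf5 came next in the knockout, in that order, and Srsf5, Hnrnph1 and Srsf2 came next in WT. Hnrnph1, which binds runs of guanosines, stood at 283 ± 7.51 CPM per kilobase in the knockout and 291 ± 10.6 CPM per kilobase in WT. By library it had 619, 649 and 619.8 CPM in the knockout libraries, against 647, 671 and 624 CPM in the WT libraries, and these overlapped as well (log2 fold change -0.04 ± 0.07, edgeR adjusted p = 0.805). Hnrnpd lay above Srsf5 in knockout library 2 and above Srsf2 in WT library 1, so these orders of the means did not hold in every library. The order depends on the length used: over all annotated exons of a gene, Srsf2 ranked 2 and Srsf5 ranked 3 in WT, and Srsf2 ranked 2 and Srsf5 ranked 6 in the knockout, with Hnrnpa2b1 first in both groups.

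**Figure D1:**
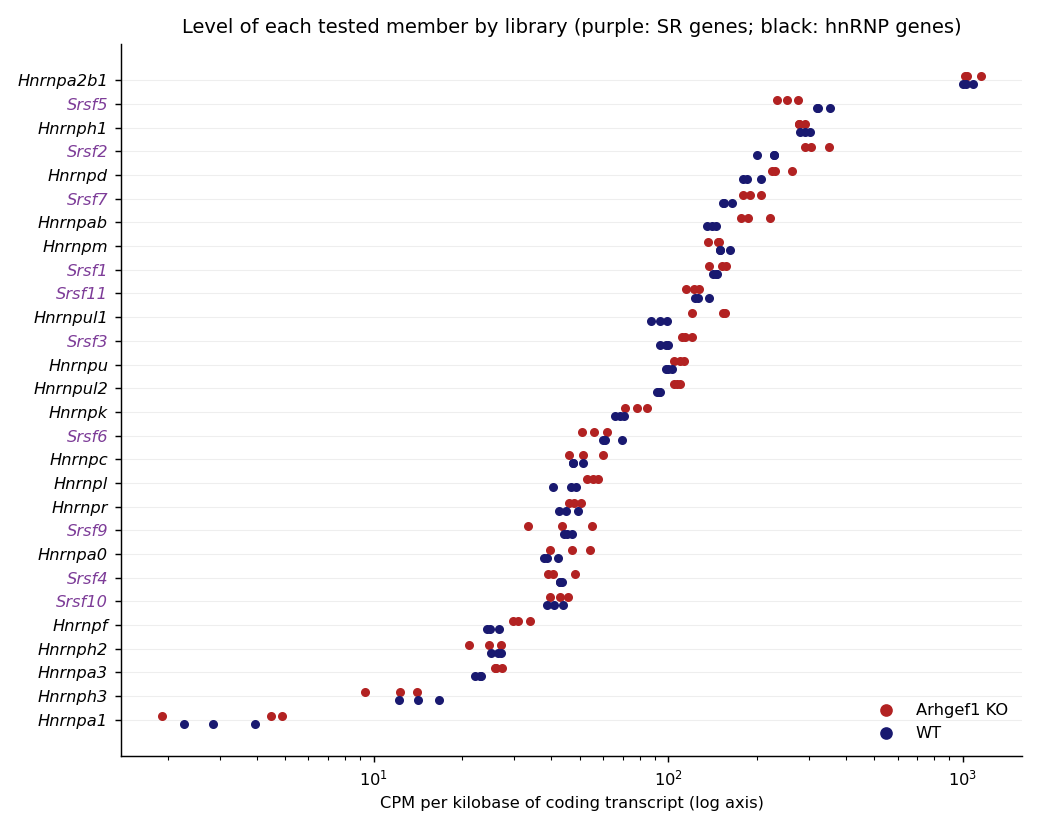
Level of each of the 28 tested members in each library, in CPM per kilobase of coding transcript on a log axis, with knockout libraries in red above WT libraries in dark blue. Hnrnpa2b1 stands at or above 999 in every library, Hnrnpa1 lies lowest, and the knockout and WT points separate for the 6 called members and for Srsf3, Hnrnpul2, Hnrnpu, Hnrnpk, Hnrnpl, Hnrnpf, Hnrnpa3 and Hnrnpm.

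Among the SR genes, Srsf2 and Srsf7 rose while Srsf5 fell. Srsf2 encodes a factor concentrated in nuclear speckles, the stores of splicing factors, and takes part in the choice of both splice sites. It lies at mm10 chromosome 11, 116849901 to 116853094, minus strand (ENSMUSG00000034120.18, protein coding). Its normalised counts were 578, 668 and 553 CPM in knockout libraries 1, 2 and 3, against 378, 434 and 432 CPM in WT libraries 1, 2 and 3. Every knockout library lay above every WT library. The group means were 599.6 ± 60.3 CPM in the knockout and 415 ± 31.6 CPM in WT (SD, n = 3 each), and on the log2 scale the gene rose by 0.53 ± 0.09 (± SE; edgeR adjusted p = 7.41e-04; 95% interval 0.35 to 0.72). The call held under all 15 alternative settings.

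Srsf5 (ENSMUSG00000021134.17, chromosome 12, 80945504 to 80950507, plus strand) encodes an enhancer-binding SR protein whose mRNA is known from rat liver as an early response to growth signals. Its normalised counts were 411, 349 and 379 CPM in knockout libraries 1, 2 and 3, against 479, 484 and 528 CPM in WT libraries 1, 2 and 3. All 3 knockout values lay below the lowest WT value. The group means were 379.8 ± 31.1 CPM in the knockout and 497 ± 27.0 CPM in WT (SD, n = 3 each), and on the log2 scale the difference was -0.39 ± 0.08 (± SE; edgeR adjusted p = 0.00642; 95% interval -0.57 to -0.21), and the call held under all 15 alternatives. The ratio of Srsf2 to Srsf5 raw counts within a library was 1.40, 1.91 and 1.46 in knockout libraries 1, 2 and 3, against 0.790, 0.897 and 0.818 in WT libraries 1, 2 and 3. Srsf2 thus had more reads than Srsf5 in each knockout library and fewer in each WT library.

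Srsf7 and Srsf3 encode small, closely related SR proteins that shuttle to the cytoplasm and act as adaptors for mRNA export. Srsf7 (ENSMUSG00000024097.11, chromosome 17, 80200080 to 80207307, minus strand) had 410.3, 471 and 434 CPM in the knockout libraries, against 355, 376 and 350.1 CPM in the WT libraries. Its groups did not overlap, and it rose by 0.28 ± 0.08 on the log2 scale (± SE; edgeR adjusted p = 0.0367). Of the 6 calls this one was lost under the most alternatives. It was lost without knockout replicate 2 (0.23) or 3 (0.29), without WT replicate 1 (0.27), 2 (0.31) or 3 (0.26), with upper-quartile factors (0.26) and with the replicate block (0.28). Srsf3 had 297, 315 and 292 CPM in the knockout libraries, against 260.2, 257 and 244 CPM in the WT libraries, again with no overlap, but its log2 fold change of 0.25 ± 0.08 did not pass (edgeR adjusted p = 0.0730). It passed with DESeq2 (0.25, adjusted p = 0.0280) and with total counts in place of TMM (0.28, edgeR adjusted p = 0.0396). The ratio of Srsf7 to Srsf3 counts was 1.38, 1.49 and 1.49 in the knockout libraries, against 1.36, 1.46 and 1.43 in the WT libraries, and these overlapped.

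The remaining 6 tested SR genes lay between -0.17 (Srsf6) and 0.05 (Srsf10) on the log2 scale, and in all 6 the groups overlapped. Srsf1, the founding member of the family, stood at 438 ± 30.0 CPM in the knockout and 426 ± 6.75 CPM in WT (SD, n = 3 each), with a 95% interval of the log2 fold change of -0.13 to 0.21. Srsf6, closest in domain layout to Srsf4 and Srsf5, had 218, 198 and 179 CPM in the knockout libraries, against 214, 245 and 211 CPM in the WT libraries (log2 fold change -0.17 ± 0.10, edgeR adjusted p = 0.321). Srsf4 had 92.0, 88.2 and 109 CPM in the knockout libraries, against 96.7, 98.6 and 97.1 CPM in the WT libraries, with an interval of -0.26 to 0.23. Srsf10, which represses splicing when it loses its phosphates, had 131, 139.6 and 122 CPM in the knockout libraries, against 119, 125 and 135 CPM in the WT libraries. Srsf11 had 379.8, 356 and 393 CPM in the knockout libraries, against 383, 427 and 392 CPM in the WT libraries. Srsf9, a close relative of Srsf1, was the most scattered of the 6, with 50.4, 63.9 and 38.9 CPM in the knockout libraries, against 52.7, 54.6 and 51.3 CPM in the WT libraries and an interval of -0.40 to 0.29. A change of the size seen in Srsf5 lies inside that interval.

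**Figure D2:**
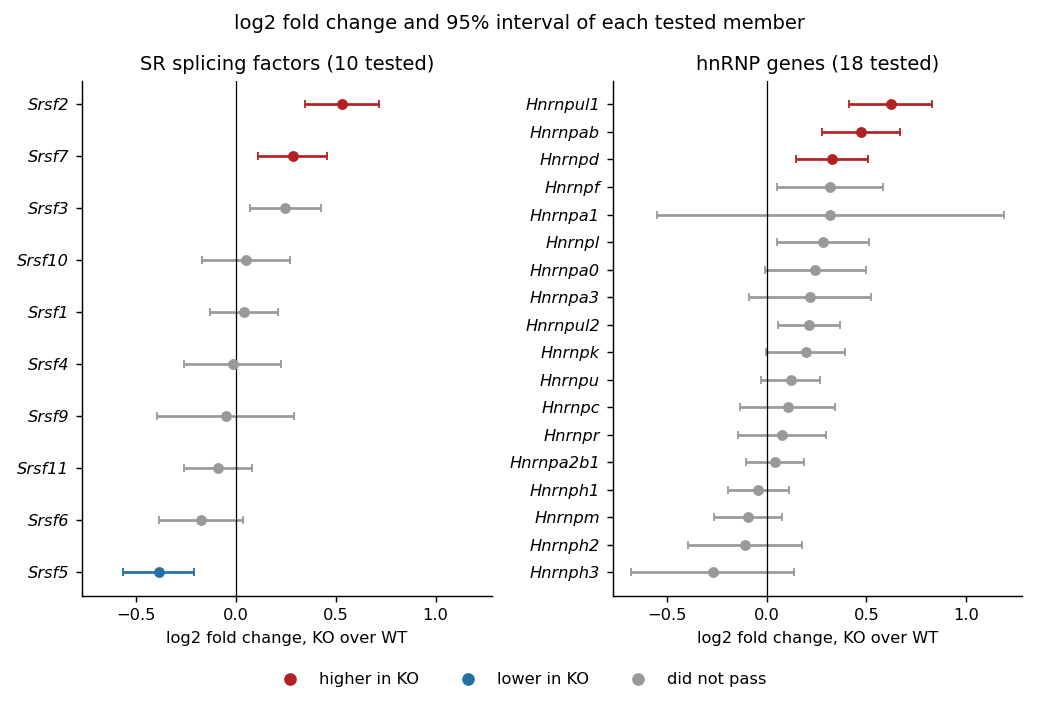
log2 fold change of each tested member, knockout over WT, with its 95% interval from the edgeR fit, for 10 SR genes on the left and 18 hnRNP genes on the right. Members that rose are red, the one that fell is blue and those that did not pass are grey; SR genes lie on both sides of 0, and Hnrnpa1 has the widest interval (-0.55 to 1.19).

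Of the hnRNP genes 14 of 18 had a positive log2 fold change, against 5762 of 11504 tested genes. The 3 hnRNP genes that passed all rose. The clearest was Hnrnpul1 (ENSMUSG00000040725.13, chromosome 7, 25721165 to 25754757, minus strand), whose protein resembles hnRNP U and is recruited to DNA breaks. Its normalised counts were 402, 515 and 524 CPM in knockout libraries 1, 2 and 3, against 292, 331 and 314 CPM in WT libraries 1, 2 and 3. All 3 knockout libraries lay above the WT libraries, with knockout library 1 nearest to WT. The means were 480.3 ± 67.9 CPM in the knockout and 312 ± 19.7 CPM in WT (SD, n = 3 each), and on the log2 scale the gene rose by 0.62 ± 0.10 (± SE; edgeR adjusted p = 4.73e-04; 95% interval 0.41 to 0.83), called under all 15 alternatives.

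Hnrnpul1 lies 0.795 Mb from the targeted gene on chromosome 7. The 38 tested genes within 1 Mb of Arhgef1, Hnrnpul1 and Axl among them, held 6 that rose and 3 that fell. Over all tested genes 5.09% rose and 4.58% fell. Calls were more frequent in the window than that, but it counts Hnrnpul1 itself and was not matched for level. Of the tested genes with an average of at least 100 CPM 19.1% were called. The median log2 fold change of the 38 genes was -0.10. The part of linkage to the deleted locus in the change of Hnrnpul1 was not tested. Its nearest neighbour among the named markers is the macrophage gene Axl, 2515 bases upstream of the Hnrnpul1 start and on the same strand. Axl moved the other way, to 13.1 ± 4.19 CPM in the knockout, against 48.8 ± 20.9 CPM in WT (SD, n = 3 each; log2 fold change -1.91 ± 0.27, edgeR adjusted p = 1.77e-04).

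Among its relatives, Hnrnpul2, a further protein of the hnRNP U type, had 536, 560.3 and 548 CPM in the knockout libraries, against 475, 478 and 467 CPM in the WT libraries. The groups did not overlap and were tight, but the log2 fold change of 0.21 ± 0.07 did not pass (edgeR adjusted p = 0.0840). It too passed with DESeq2 (0.21, adjusted p = 0.0287) and with total counts (0.24, edgeR adjusted p = 0.0415). Hnrnpu itself, a nuclear scaffold protein, had 835, 864 and 798 CPM in the knockout libraries, against 747, 762 and 787 CPM in the WT libraries (log2 fold change 0.12 ± 0.07, edgeR adjusted p = 0.341), also without overlap. The ratio of Hnrnpul1 to Hnrnpul2 counts was 0.751, 0.920 and 0.956 in the knockout libraries, against 0.615, 0.694 and 0.671 in the WT libraries, with every knockout library above.

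Hnrnpab and Hnrnpd encode proteins of one type, each with a pair of RNA recognition motifs; hnRNP D is also called AUF1 and binds AU-rich elements in short-lived mRNAs, such as those of cytokines. Hnrnpab (ENSMUSG00000020358.17, chromosome 11, 51600100 to 51606847, minus strand) had 357, 447 and 375 CPM in the knockout libraries, against 273, 293 and 283 CPM in the WT libraries. The groups were apart, with means of 393 ± 47.6 CPM in the knockout and 283 ± 10.3 CPM in WT (SD, n = 3 each), and the rise on the log2 scale was 0.47 ± 0.09 (± SE; edgeR adjusted p = 0.00299), called under all 15 alternatives. Hnrnpd (ENSMUSG00000000568.15, chromosome 5, 99955935 to 99978938, minus strand) had 459, 524 and 449.9 CPM in the knockout libraries, against 411, 359 and 371 CPM in the WT libraries. It rose by 0.33 ± 0.09 (± SE; edgeR adjusted p = 0.0225) without overlap, and lost its call without knockout replicate 2 (0.25), WT replicate 2 (0.29) or WT replicate 3 (0.31).

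**Figure D3:**
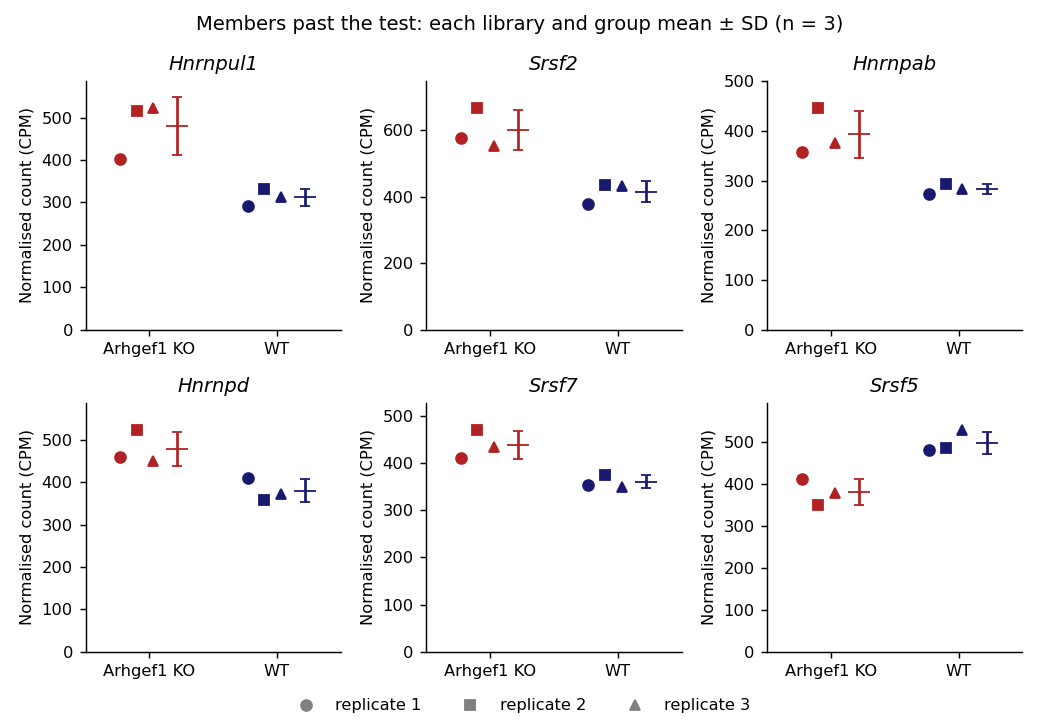
Normalised counts in CPM of the 6 members that passed the test, by library (circle, square and triangle for replicates 1, 2 and 3), with the mean ± SD of each group beside the points (n = 3). In each panel the 3 knockout points lie on one side of the 3 WT points: above for Hnrnpul1, Srsf2, Hnrnpab, Hnrnpd and Srsf7, and below for Srsf5.

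Of the 15 hnRNP genes that did not pass, 6 had every knockout library above every WT library, Hnrnpm had every knockout library below, and 8 overlapped. With the called genes counted too, the knockout lay above in 9 of the 18 hnRNP genes and below in 1. Over all tested genes, called ones included, the groups did not overlap in 27.2%, with the knockout above in 13.7% and below in 13.5%. That share was 40.9% over the 2213 tested genes with an average of at least 100 CPM, a level that Hnrnpf and Hnrnpa3 did not reach. No share was taken over uncalled genes alone. Hnrnpf, a guanosine-run binder like Hnrnph1, had 67.5, 76.7 and 70.1 CPM in the knockout libraries, against 55.0, 60.6 and 56.3 CPM in the WT libraries (log2 fold change 0.32 ± 0.13, edgeR adjusted p = 0.133). Hnrnpl, the regulator of Cd45 exons, had 113, 123 and 119 CPM in the knockout libraries, against 87.3, 100.4 and 104 CPM in the WT libraries (log2 fold change 0.28 ± 0.11, edgeR adjusted p = 0.125). Both separated without passing. Hnrnpl also lies on chromosome 7, 3.88 Mb from Arhgef1. Hnrnpk, which binds cytosine-rich RNA through its KH domains, had 210.0, 227 and 191 CPM in the knockout libraries, against 176, 189 and 183 CPM in the WT libraries, and Hnrnpa3 had 45.2, 43.0 and 42.6 CPM in the knockout libraries, against 36.4, 38.0 and 38.1 CPM in the WT libraries. Both were apart between the groups at log2 fold changes of 0.20 ± 0.09 and 0.22 ± 0.14.

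Hnrnph3, the shortest protein of the H and F type, had the lowest fold change among hnRNP genes, with 30.4, 20.3 and 26.7 CPM in the knockout libraries, against 36.1, 26.4 and 30.6 CPM in the WT libraries. The groups overlapped, and the log2 fold change was -0.27 ± 0.19 (edgeR adjusted p = 0.459). Hnrnpm had 377, 379 and 347 CPM in the knockout libraries, against 381, 380.4 and 414 CPM in the WT libraries and differed by -0.09 ± 0.08. Among the rest, Hnrnpc, which binds uridine tracts, had an interval of -0.13 to 0.34, Hnrnpr an interval of -0.14 to 0.30, and Hnrnph2 an interval of -0.39 to 0.18. Hnrnpa0, which binds AU-rich RNA, had 126, 145 and 106 CPM in the knockout libraries, against 101, 103 and 113 CPM in the WT libraries, with knockout libraries 1 and 2 above the WT values and knockout library 3 among them (0.24 ± 0.12, edgeR adjusted p = 0.242). Over all 28 members, knockout library 2 was the farthest from the WT mean in 18, knockout library 1 in 5 and knockout library 3 in 5. This order was not counted over all tested genes, so it cannot be read as a trait of the members.

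Hnrnpa1 was counted at a far lower level than its relative Hnrnpa2b1, which limits what can be said of it. It had 73, 32 and 91 reads in the knockout libraries, against 41, 43 and 58 in the WT libraries, or 8.50, 3.31 and 7.76 CPM in the knockout libraries, against 3.93, 4.95 and 6.84 CPM in the WT libraries. The groups overlapped, with knockout library 2 below all others, and the interval of the log2 fold change ran from -0.55 to 1.19. Of the 50-base words in its coding transcript 54.1% also occurred in annotated transcripts of genes elsewhere in the genome, 20 of them pseudogenes. Hnrnpa3 shared 90.5% of its words, with 42 pseudogenes among the sharing genes, Hnrnpf 59.8%, Hnrnpk 38.3%, Srsf3 31.5%, Hnrnph2 30.9% and Srsf5 29.2%. Reads from such stretches may be dropped or split in counting, so the levels of these genes are uncertain. Srsf2, Hnrnpab and Hnrnpd shared 0% of their words with genes elsewhere, Hnrnpul1 0.303% and Srsf7 0.938%. In all, 10 of the 29 members shared at least 10% and 14 shared no word.

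**Figure D4:**
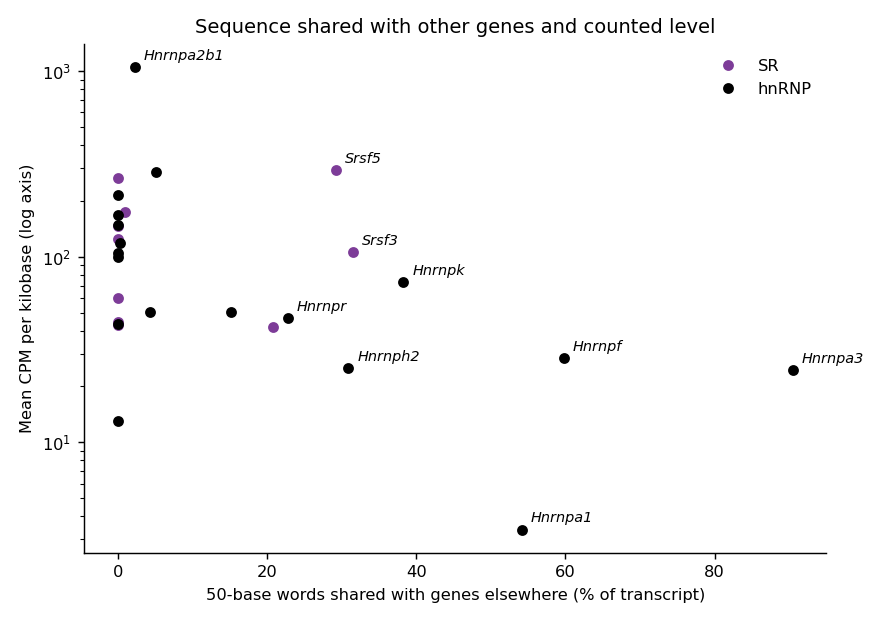
Share of the 50-base words of each tested member's coding transcript that also occur in genes elsewhere (horizontal axis, percent) against its mean level over the 2 groups in CPM per kilobase (vertical log axis), for 10 SR and 18 hnRNP genes. Hnrnpa3, Hnrnpf and Hnrnpa1 lie to the right at low levels, and Hnrnpa2b1 lies at the top left with 2.25% shared.

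Overlapping genes touch some of the members that moved. Exons of Hnrnpab share 809 bases with Phykpl on the opposite strand, a gene listed under its older symbol Agxt2l2 at 26.1 CPM in the knockout and 27.5 CPM in WT. Exons of Srsf2 share 460 bases with Mettl23 and 288 bases with Mfsd11, both on the opposite strand. Mettl23, listed under the older symbol 1110005A03Rik, had 9.44 CPM in the knockout and 11.6 CPM in WT, and Mfsd11 had 13.4 CPM in the knockout and 8.38 CPM in WT. None of these 3 partners passed the test, and each lay far below its member in CPM. Hnrnpd shares 385 exon bases with the antisense gene Gm17092, which is not listed in the table. The counting is not stated to use strand, so reads from such a pair cannot be told apart.

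Gene counts add up the isoforms. GENCODE lists at least 1 transcript marked for nonsense-mediated decay for 9 of the 11 SR genes and 8 of the 18 hnRNP genes, and at least 1 with a retained intron for 8 SR and 12 hnRNP genes. Srsf2 has 2 decay transcripts among 6, Srsf5 has 1 among 12, Srsf7 has 1 among 8 and Hnrnpd has 4 among 11, while Hnrnpab and Hnrnpul1 have 0. Whether the changes fell on the coding or on the decay isoforms cannot be read from these counts.

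The promoters of the 4 members whose calls held under every alternative are shown to set their sequence beside their direction of change, as RefSeq windows on GRCm38.p6 from 250 bases before to 50 bases after the annotated start, 5′ to 3′ on the strand of the gene. Hnrnpul1 is at chr7:25754710-25755009 (minus strand), Hnrnpab at chr11:51606832-51607131 (minus), Srsf2 at chr11:116853045-116853344 (minus) and Srsf5 at chr12:80945249-80945548 (plus). Capitals mark matches, on either strand, to CCAAT, to the GC box GGGCGG, to the ETS core CCGGAAG, to the E2F site TTCCCGC, to the E-box CACGTG and to the CRE-type site TGACGT.
Hnrnpul1: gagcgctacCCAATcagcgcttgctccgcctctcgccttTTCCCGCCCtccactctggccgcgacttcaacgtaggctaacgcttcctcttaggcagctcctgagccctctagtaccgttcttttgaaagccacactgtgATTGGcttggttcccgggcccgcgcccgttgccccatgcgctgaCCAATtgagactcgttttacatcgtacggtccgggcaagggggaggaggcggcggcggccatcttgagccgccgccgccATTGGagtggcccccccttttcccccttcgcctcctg
Hnrnpab: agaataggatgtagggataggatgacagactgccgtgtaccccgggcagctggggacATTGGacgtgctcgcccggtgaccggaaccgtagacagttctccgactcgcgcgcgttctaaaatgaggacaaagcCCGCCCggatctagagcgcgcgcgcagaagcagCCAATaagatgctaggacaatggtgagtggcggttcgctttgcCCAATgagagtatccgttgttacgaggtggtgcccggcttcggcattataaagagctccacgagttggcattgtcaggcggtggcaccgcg
Srsf2: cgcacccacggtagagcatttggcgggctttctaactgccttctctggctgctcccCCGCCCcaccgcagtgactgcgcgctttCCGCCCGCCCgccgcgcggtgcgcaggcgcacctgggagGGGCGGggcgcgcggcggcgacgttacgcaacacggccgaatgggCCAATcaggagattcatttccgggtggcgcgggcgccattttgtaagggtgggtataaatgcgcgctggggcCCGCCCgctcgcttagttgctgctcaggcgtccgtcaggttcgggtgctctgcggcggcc
Srsf5: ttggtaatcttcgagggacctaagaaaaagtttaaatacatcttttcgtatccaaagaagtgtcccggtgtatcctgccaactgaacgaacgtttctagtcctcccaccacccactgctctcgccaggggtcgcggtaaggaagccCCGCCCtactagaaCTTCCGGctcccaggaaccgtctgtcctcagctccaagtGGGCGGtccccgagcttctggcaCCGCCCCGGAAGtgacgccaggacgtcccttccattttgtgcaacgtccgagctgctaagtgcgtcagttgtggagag
Hnrnpul1 holds 4 CCAAT matches, Hnrnpab 3, Srsf2 1 and Srsf5, the member that fell, 0. CCAAT matches did not follow the direction of change over the other members. Hnrnpd and Srsf7, which rose, hold 0, and Hnrnpa1, Hnrnpc, Hnrnpr and Hnrnpl, which did not pass, hold 4 each. Srsf2 holds 5 GC boxes, Srsf5 3, and Hnrnpul1 and Hnrnpab 1 each; Srsf5 also holds 2 ETS cores. A GC box overlaps the E2F site in Hnrnpul1 and an ETS core in Srsf5. Of the 27 tested members with a RefSeq window (Hnrnpul2 had none), 16 held CCAAT, against 37.9% of 27025 promoters, and 21 held a GC box, against 35.9%. An ETS core was in 6, against 9.12% of all, an E2F site in 5 (4.66% of all), a CRE-type site in 8 (7.64% of all) and an E-box in 4 (7.24% of all). Of the 5 members that rose, 3 held CCAAT and 5 a GC box. The members' windows were rich in CpG, with a median of 31 CpG sites and a range of 7 to 52, against a median of 7 over all promoters, which include those of noncoding genes. Where a gene had several windows, only the first listed was counted. This touched Hnrnph1 (5 windows), Hnrnpf (4), Srsf4 (3), and Srsf11, Hnrnpr and Hnrnpa2b1 (2 each). The lowest CpG count of 7 was that of Hnrnpf. A match is a match of letters and shows no binding.

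The other splicing genes, taken from lists drawn up for this comparison, mostly did not pass. Values lay on both sides of 0 in most lists. Core spliceosome genes leaned upward as the hnRNP members did, with 31 of 39 positive and a median of 0.25, against 0.20 for the hnRNP members. The share called lay near that of all tested genes (9.67%) in most lists. That background rises with level, to 14.9% at an average of at least 25 CPM and 19.1% at 100 CPM or more. The lists were not matched for level, so they cannot be ranked against the members by these shares. It ran from 7.69% for the exon junction complex and nonsense-mediated decay to 14.3% for the kinases, import receptors and methyltransferases. For core spliceosome genes it was 10.3%. Of 9 hnRNP-class genes under other symbols, 1 rose and 8 did not pass, and all 9 had a positive log2 fold change (median 0.16). The one that rose was Ptbp1, the polypyrimidine-tract binder that represses many exons, with 221, 253 and 236 CPM in the knockout libraries, against 167, 149.8 and 141 CPM in the WT libraries (log2 fold change 0.63 ± 0.10, edgeR adjusted p = 3.50e-04). Its groups were apart, and the call held under all alternatives. Pcbp1 (0.41 ± 0.13, edgeR adjusted p = 0.0556), Hnrpdl, which is Hnrnpdl under an older symbol (0.23 ± 0.08, adjusted p = 0.0960), and Syncrip (0.16 ± 0.09, adjusted p = 0.326) did not pass.

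The kinases and enzymes that modify the members included a clear fall. Among 14 SR protein kinases, import receptors and arginine methyltransferases 1 rose, 1 fell and 12 did not pass, with a median of 0.01. Clk1, a nuclear kinase of SR proteins, had 536, 523 and 536 CPM in the knockout libraries, against 761, 746 and 751 CPM in the WT libraries. Within each group the libraries were nearly equal, and Clk1 fell by 0.50 on the log2 scale (-0.50 ± 0.07, SE; edgeR adjusted p = 1.80e-04), under all alternatives. Its relative Clk4 had 161, 164 and 191 CPM in the knockout libraries, against 213, 215 and 195 CPM in the WT libraries and did not pass (-0.27 ± 0.10, edgeR adjusted p = 0.0973). Srpk1, the cytoplasmic SR kinase, did not pass either (0.26 ± 0.11, edgeR adjusted p = 0.152). Prmt1, which methylates arginines of hnRNPs, had 44.2, 34.4 and 43.8 CPM in the knockout libraries, against 25.9, 27.9 and 20.1 CPM in the WT libraries and rose by 0.73 ± 0.18 (edgeR adjusted p = 0.0151). The call of Prmt1 was lost without knockout replicate 3 (0.68) or WT replicate 3 (0.61).

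In the list of 30 tested SR-related proteins and coactivators 2 rose, 1 fell and 27 did not pass (median 0.03). Scaf4, which binds the tail of RNA polymerase II, rose by 0.35 ± 0.10 (edgeR adjusted p = 0.0255), with 223 CPM in the knockout and 174 CPM in WT. Cherp, an SR-related spliceosome protein, rose by 0.41 ± 0.11 (edgeR adjusted p = 0.0291). Srrm2, a scaffold of nuclear speckles, fell by 0.23 on the log2 scale (edgeR adjusted p = 0.0422), with 1871 CPM in the knockout and 2188 CPM in WT. Tra2a did not pass (-0.30 ± 0.10, edgeR adjusted p = 0.0635). Scaf4 lost its call without knockout replicate 2 (0.30) or 3 (0.36) or WT replicate 2 (0.37) or 3 (0.29), and Cherp without knockout replicate 3 (0.33) or WT replicate 1 (0.39), 2 (0.44) or 3 (0.40). Srrm2 lost its own without knockout replicate 1 (-0.20) or 2 (-0.19), without WT replicate 1 (-0.19), 2 (-0.26) or 3 (-0.23), with total counts (-0.19) and with the replicate block (-0.23).

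Among 26 tested alternative splicing regulators 3 rose and 23 did not pass (median 0.06). Khsrp, which takes part in the decay and processing of RNA, had 140.1, 179 and 198 CPM in the knockout libraries, against 110.1, 127 and 100.5 CPM in the WT libraries and rose by 0.62 ± 0.13 (edgeR adjusted p = 0.00428) under all alternatives. Mbnl3, of the muscleblind family, rose by 0.43 ± 0.11 (edgeR adjusted p = 0.0201) and Celf1 by 0.32 ± 0.10 (adjusted p = 0.0419), while Nono did not pass (0.31 ± 0.10, adjusted p = 0.0585). Mbnl3 lost its call without knockout replicate 2 (0.33) or WT replicate 2 (0.38) or 3 (0.45). Celf1 lost its own without knockout replicate 2 (0.31) or 3 (0.28) or WT replicate 1 (0.30) or 3 (0.26), with upper-quartile factors (0.30) and with the replicate block (0.33).

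Of 39 tested core spliceosome genes 3 rose, 1 fell and 35 did not pass, with a median of 0.25 and 31 positive values. Sf3b3, a subunit of the branch-point complex, rose by 0.49 ± 0.10 (edgeR adjusted p = 0.00291; 203 CPM in the knockout and 145 CPM in WT) under all alternatives. Snrpa, a protein of the U1 particle, rose by 0.72 ± 0.18 (edgeR adjusted p = 0.0162) and Sf3a1 by 0.46 ± 0.12 (adjusted p = 0.0216). Snrnp70, the U1 protein to which SR proteins bind, fell, with 227, 223 and 239 CPM in the knockout libraries, against 291, 278 and 317 CPM in the WT libraries (-0.36 ± 0.09, edgeR adjusted p = 0.0141). Snrnp70 lost its call without knockout replicate 2 (-0.34) or WT replicate 3 (-0.31), and Snrpa without knockout replicate 2 (0.67) or 3 (0.65) or WT replicate 3 (0.62). Sf3a1 lost its own without knockout replicate 2 (0.47) or 3 (0.38) or WT replicate 2 (0.48) or 3 (0.39). Of 13 tested genes of the exon junction complex and nonsense-mediated decay, Smg5 rose (0.51 ± 0.13, edgeR adjusted p = 0.0223) and 12 did not pass (median -0.02), among them the helicase gene Upf1 (0.36 ± 0.14) and Upf3b (-0.31 ± 0.15). Smg5 lost its call without knockout replicate 2 (0.52) or 3 (0.45) or WT replicate 1 (0.48) or 3 (0.48).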

How the data were processed

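Whole-number read counts per gene symbol, with no normalization, were deposited for 3 Arhgef1-/- and 3 WT libraries, grouped by title. STAR, HTSeq, DESeq2 and mm10 appear in the submitters' processing notes; their versions, the annotation, the strand setting and how cells were sorted are not given here. The whole deposited table entered edgeR 4.0.16 (R 4.3.3): filterByExpr kept 11504 of 14788 symbols, TMM factors were 0.977 to 1.02, and genotype was the only term of the quasi-likelihood model, with Benjamini-Hochberg adjustment. Standard errors and 95% intervals were taken from the fold change and its F statistic. The procedure was tested on simulated data, with 50 changed genes of each size drawn at all but the lowest levels. It called 20% of 1.3-fold rises, 4% of falls to 0.769, 58% of 1.5-fold rises and 84% of 2-fold rises. It made 4 false calls among 11358 tested genes. Small changes can thus be missed.

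Positions, transcript lengths and 50-base words came from GENCODE vM21 (mm10), and promoters from RefSeq. Values by library were set for each member with an adjusted p under 0.05, the 4 largest changes among the others and the 4 highest levels per length, with up to 4 genes of smallest p per list; Axl and further members were added after their values were seen. The members, lists and rules were chosen with earlier results of these data known. Alternatives were size factors of DESeq2, total counts, upper-quartile factors, no filter, a filter of 5 CPM in 3 or more libraries, omission of the 50 most abundant genes, DESeq2 1.42.0, limma-voom 3.58.1, the replicate block, and omission of each library. Listed genes absent from the table were not analysed here.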

Additional observations from a re-analysis of the deposited data

How the results depend on the processing

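Of the 28 tested members, 24 kept their side of the threshold and 23 their direction under every one of the 15 alternatives (14 for Hnrnpa2b1, which is among the 50 most abundant genes). Members called numbered 4 to 8, and those called lower 1 throughout. Leaving out 1 library at a time gave 3 to 5 members higher in the knockout, with the fewest without knockout replicate 2, WT replicate 2 or WT replicate 3. It gave 598 to 1072 called genes in all, 310 to 583 higher and 264 to 489 lower (1113, 586 and 527 with all libraries; past 1.5 times fewer without knockout replicate 2 or any 1 WT replicate), medians of -0.0057 to 0.10 for SR genes and 0.16 to 0.22 for hnRNP genes, and differences in the share of counts, knockout minus WT, of 0.0158 to 0.0290 percentage points for SR and 0.0570 to 0.0882 for hnRNP genes. Directions turned only in members whose log2 fold change with all libraries and TMM factors lay between -0.05 and 0.05. Srsf4 turned with total counts (0.016) and without knockout replicate 1 or 2 (over single omissions -0.11 to 0.040). Hnrnpa2b1 (-0.020 to 0.080), Srsf1 (lowest -0.0030) and Srsf10 (lowest -0.0012) turned without knockout replicate 2. Srsf9 turned without knockout replicate 3 and ranged widest of these, from -0.25 to 0.12. The cause was not tested.

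The replicate block gave 945 called genes, 496 higher and 449 lower, and 5 called members, 4 higher and 1 lower; Srsf7 alone lost its call. No pairing by number was seen: deviations of same-numbered libraries correlated at 0.0495, -0.0623 and -0.0460 over 8679 genes, and only number 1 correlated best with its own. With 3 libraries a group this check could miss a weak pairing. Depth was lowest for Srsf12, with 0 to 8 reads a library, and Hnrnpa1, with 32 to 91.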
